A study of Rattus norvegicus with 6 samples.

Results

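The proteins of the mitochondrial ribosome were followed in a rat pituitary tumour cell line, GH4C1, of the somatolactotroph lineage, when it made the dominant negative transcription factor mutant POU1F1(R271W). Members were all genes whose symbol starts with Mrpl (large subunit) or Mrps (small subunit) followed by a digit. They came to 73 genes, 46 of them Mrpl and 27 Mrps, of 14217 genes that had a probe set annotated to a single symbol. Each gene is given by its brightest such probe set over the 6 arrays. All 73 genes passed the filter on low signal, as did 10143 genes in all. The members had 97 probe sets, of which 5 were too dim to test, all of them additional sets of genes that have a brighter one (Mrps15, Mrps22, Mrps26, Mrpl37 and Mrps18c).

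The study asked how gene expression in this line changes in the presence of the mutant. Both groups were transduced with a lentiviral vector driven by the PGK promoter at a multiplicity of infection of 5 and harvested after 4 days in regular medium. The vector of the 3 R271W cultures carried POU1F1(R271W), an IRES and EGFP, and that of the 3 control cultures carried EGFP alone, so all cultures made EGFP. The labels call the cultures of a group biological replicates, and all came from 1 tumour line. The share of transduced cells is not given in the sources used here.

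POU1F1 is a pituitary transcription factor that drives the growth hormone and prolactin genes, and R271W is a human mutation of its homeodomain. The mitochondrial ribosome, or mitoribosome, translates the small set of proteins encoded by mitochondrial DNA, which are core subunits of the oxidative phosphorylation complexes. Its ribosomal RNAs come from mitochondrial DNA, whereas all of its proteins come from nuclear genes and are imported. The small subunit binds the messenger RNA and reads its codons, and the large subunit joins the amino acids and holds the exit for the new chain. Some of the proteins descend from bacterial ribosomal proteins and others are found only in mitochondria.

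Values are MAS5 signals, which are array brightness on a linear scale with a trimmed mean of 100.03 to 100.04 per array. They can be compared for 1 gene across arrays but not between genes, since probes differ in brightness. The median signal over all probe sets was 22.4 to 22.9 on the control arrays and 25.5 to 26.9 on the R271W arrays. The line's own markers were bright: Prl, which encodes prolactin, had a mean signal of 4332 ± 188 (SD, n = 3) in control cells and 3175 ± 171 in R271W cells, and Gh1, which encodes growth hormone, had 6443 ± 348 and 6338 ± 867. Prl and Pou1f1 itself fell (log2 fold changes of -0.45 and -0.33, limma adjusted p = 0.00048 and 0.00486), and whether the Pou1f1 probe set also detects RNA of the transgene was not tested. Of 11 markers of other pituitary cell types, 6 were below the filter (Pomc, Tshb, Gnrhr, Pecam1, Ptprc and Col1a1). Lhb, Fshb and Cga had group means of 11.2 to 29.3 and did not pass the test, and Sox2 and Dcn were well measured and fell by 0.43 and 1.20 on the log2 scale. The part of these marker changes in the results was not tested. In these bulk cultures, fewer cells of a type and less RNA per cell cannot be told apart.

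Most mitoribosomal genes kept levels close to those of control cells, and for 63 of the 73 the 95% confidence interval lay wholly inside a 1.5-fold change in either direction, as did that of 4613 of the 10143 tested genes. Genes with small subunit symbols made up 4 of the 5 that fell. That is 4 of the 27 with such symbols, while 8.98% of all tested genes were called lower. Among these 4, Mrps30 encodes a protein that sits in the large subunit. The lowest limma adjusted p of the 4 were those of Mrps18b and Mrps6. The genes that rose were Mrps31, Mrpl32, Mrpl49 and Mrpl20. The limma test on log2 signal, with Benjamini-Hochberg adjustment over all tested probe sets and a threshold of 0.05, called 9 of 73 members (12.3%), against 18.9% of all tested genes. It called 4 members higher in R271W cells (5.48%, against 9.87% of all tested genes) and 5 lower (6.85%, against 8.98%). These counts depend on the model and the scaling. The same test without its intensity trend called 0 higher and 0 lower, with 4 and 6 at an unadjusted p under 0.05 where the main test had 9 and 16. After centring each array on its median signal it called 1 higher and 25 lower, and after centring on the 75th percentile 3 higher and 11 lower.

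The changes were small. Log2 fold changes of the members, R271W over control, ran from -0.56 to 0.65, with a median of -0.06 and quartiles of -0.19 and 0.13. Over all tested genes the median was 0.06. The median size of a change, without its sign, was 0.162 for members and 0.246 for all tested genes. Members also varied less between arrays of a group, with a median SD of log2 signal of 0.135 against 0.183. Their lowest mean control signal was 89.5, whereas the filter admitted genes down to a signal of 11.2. The part of brightness and spread in these contrasts, and in the counts of confidence intervals above, was not tested. Standard errors of the members' changes were 0.0732 to 0.205, with a median of 0.111. A change past 1.5-fold was found for 1 member (1.37%), Mrps31, and for 16.8% of all tested genes. The sign of a small change is tied to the scaling: 31 members lay above 0 and 42 below, and with median centring 11 and 62 did. Of all tested genes, 5687 lay above 0 and 4456 below before that centring.

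Without any test, the 3 R271W arrays all lay above the 3 control arrays for 9 members (12.3%) and all below them for 18 members (24.7%). Over all tested genes these shares were 21.2% and 16.6%.

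**Figure D1:**
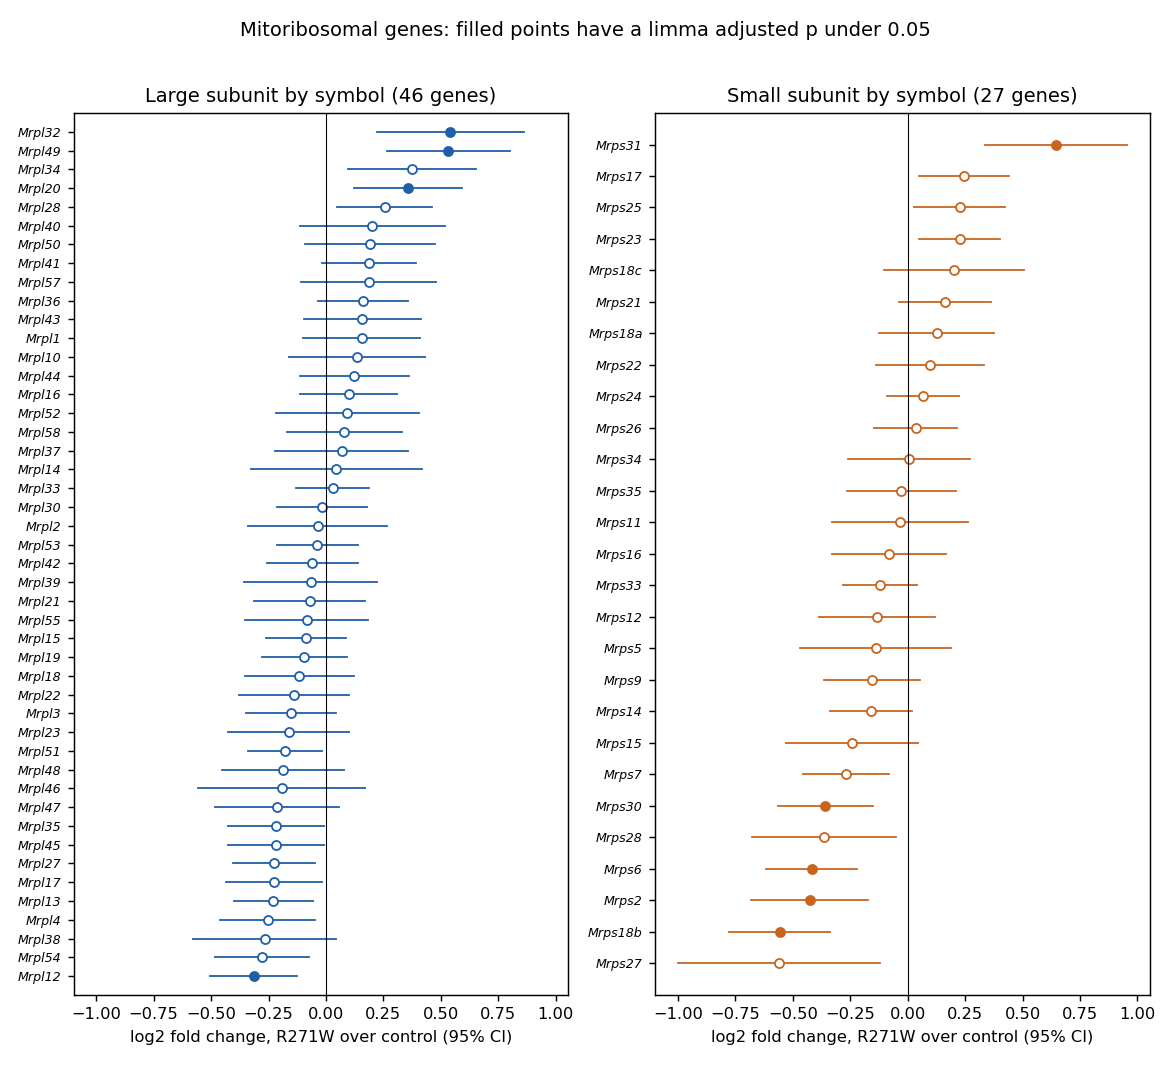
Log2 fold change of each mitoribosomal gene, R271W over control, with its 95% confidence interval from the limma fit (horizontal axis), for 46 large subunit genes (left) and 27 small subunit genes (right). Filled points passed an adjusted p of 0.05: 3 higher and 1 lower on the left, 1 higher and 4 lower on the right, with all values between -0.56 and 0.65.

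Among the small subunit genes that fell, Mrps18b (probe set 1371809_at) changed most. Its protein is one of the mitochondrial homologues of a single bacterial ribosomal protein. Signals were 381, 413 and 475 in control replicates 1 to 3 and 303, 285 and 272 in R271W replicates 1 to 3, with all R271W arrays under the lowest control array. The log2 fold change was -0.56 (SE 0.102, adjusted p = 0.00233). Mrps6 (1389110_at), whose protein has a bacterial counterpart in the platform of the small subunit, had 489.9, 518 and 531 in control cells and 345, 412 and 397 in R271W cells. These groups did not overlap either, and the log2 fold change was -0.42 (SE 0.0926, adjusted p = 0.00752). Both calls held when any 1 array was left out, and of 17 alternatives were lost only in the one without the intensity trend (adjusted p = 0.0572 and 0.0863). A required fold of at least 1.5, which is not among those 17, also left neither gene called.

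Mrps2 (1372116_at), a small subunit protein with a bacterial counterpart, gave 316, 292 and 307 in control cells and 243, 189 and 254 in R271W cells. The groups did not overlap, with R271W replicate 2 the lowest array, and the log2 fold change was -0.43 (SE 0.119, adjusted p = 0.0264). The call rests on this probe set and on single arrays. Its 2 dimmer probe sets had log2 fold changes of -0.14 and 0.26 (adjusted p = 0.674 and 0.565), and without R271W replicate 2 or control replicate 1, 2 or 3 the adjusted p was 0.112, 0.0872, 0.0519 and 0.0762.

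The remaining lower calls belong to the large subunit. Mrps30 (1373069_at) carries a small subunit symbol, but its protein sits in the central protuberance of the large subunit. It gave 418, 453 and 456 in control cells and 370.2, 358 and 309 in R271W cells, without overlap. The log2 fold change was -0.36 (SE 0.0959, adjusted p = 0.0213), and without R271W replicate 3, control replicate 2 or control replicate 3 the adjusted p was 0.0625, 0.0758 and 0.0787.

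Mrpl12 (1372431_at) encodes the protein of the flexible stalk to which translation factors bind. Signals were 641, 659.7 and 605 in control cells and 462, 551 and 522 in R271W cells, again without overlap, and R271W replicate 1 was the lowest. The log2 fold change was -0.32 (SE 0.0881, adjusted p = 0.0265). Its dimmer second probe set overlapped between groups (-0.19, adjusted p = 0.755). Without R271W replicate 1, control replicate 1 or control replicate 2 the adjusted p was 0.0956, 0.0792 and 0.101. Quantile normalization gave 0.0595.

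Mrps31 (1372456_at), a small subunit protein with no bacterial counterpart, had the largest rise. Signals were 136, 146 and 119.5 in control cells and 172, 244 and 217 in R271W cells. The lowest R271W array was above the highest control array, and the log2 fold change was 0.65 (SE 0.143, adjusted p = 0.00757). Leaving out any 1 array kept the call, and removing the intensity trend ended it (adjusted p = 0.078).

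Mrpl49 (1373241_at) encodes a large subunit protein with no bacterial counterpart. Of the genes called higher, it alone had a second probe set, and both of its sets were called. The brighter one gave 131, 139.9 and 160.1 in control cells and 196, 198 and 229 in R271W cells, which is a change of 0.53 in log2 signal (SE 0.125, adjusted p = 0.0104). The dimmer one (1372619_at) gave 98.3, 99.7 and 110.1 against 138, 148 and 139, which is 0.47 (SE 0.131, adjusted p = 0.0271). Neither probe set overlapped between groups. The brighter set's call held without any 1 array and was lost with median centring (0.33, adjusted p = 0.0945) and without the intensity trend (adjusted p = 0.0696).

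Mrpl32 (1389327_at) encodes a large subunit protein that is cut to its mature form by a protease of the inner membrane. It gave 118, 141 and 139 in control cells and 190.0, 234 and 159 in R271W cells, with the 3 R271W arrays spread widely but all above control. The log2 fold change was 0.54 (SE 0.149, adjusted p = 0.0245), and without R271W replicate 1, R271W replicate 2 or control replicate 1 the adjusted p was 0.0566, 0.12 and 0.093. With median centring it was 0.134.

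Mrpl20 (1371720_at), a large subunit protein with a bacterial counterpart, gave 207, 196 and 189.6 in control cells and 229, 259.6 and 272 in R271W cells. The groups did not overlap, and the log2 fold change of 0.36 (SE 0.109) passed narrowly (adjusted p = 0.0395). It was the least stable of the 9 calls, lost under 10 of 17 alternatives. Among them, leaving out R271W replicate 2 or 3 or control replicate 1, 2 or 3 gave adjusted p = 0.117, 0.114, 0.062, 0.101 and 0.119. The replicate block gave 0.0731, quantile normalization 0.0617, centring on the 75th percentile 0.121 and on the median 0.386.

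**Figure D2:**
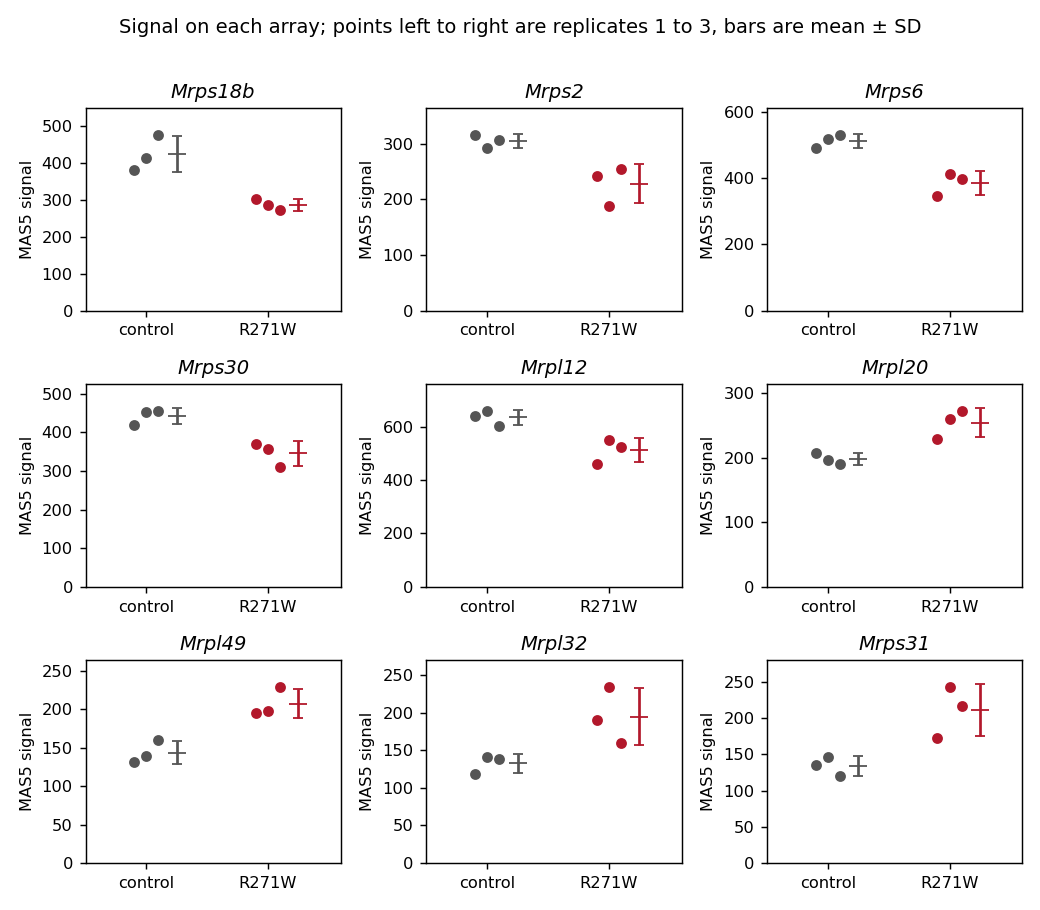
MAS5 signal (vertical axis, linear, from 0) on each of the 6 arrays for the 9 called mitoribosomal genes, with points for replicates 1 to 3 from left to right and bars for the group mean ± SD. In each panel the groups are separate; Mrps18b stood at 423 ± 47.8 in control and 287 ± 15.9 in R271W cells, and Mrps31 at 134 ± 13.4 and 211 ± 36.0.

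Promoters of nuclear genes for mitochondrial proteins often hold sites for NRF1, ETS family factors such as GABPA, YY1 and SP factors, and POU1F1 is the factor whose mutant was expressed. The promoters of the 4 calls that held without any 1 array are shown so that these sites can be seen beside the values above. They run from 250 bases before to 50 bases after the gene start, 5′ to 3′ on the strand of the gene, from RefSeq, build GRCr8. Capitals mark every match on either strand to NRF1 (GCGCANGCG), ETS (CCGGAAG), YY1 (AAGATGG), SP (GGGCGG), E-box (CACGTG) or POU1F1 (ATGNATA). The first pair belongs to genes that fell and the second pair to genes that rose.
Mrps18b, chr20:2842756-2843055, + strand: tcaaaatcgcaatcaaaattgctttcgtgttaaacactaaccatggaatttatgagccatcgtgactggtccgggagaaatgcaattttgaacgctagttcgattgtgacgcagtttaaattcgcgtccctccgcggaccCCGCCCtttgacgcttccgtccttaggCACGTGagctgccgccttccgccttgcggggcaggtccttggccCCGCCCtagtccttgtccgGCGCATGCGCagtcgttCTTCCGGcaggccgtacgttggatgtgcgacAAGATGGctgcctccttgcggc
Mrps6, chr11:44778417-44778716, + strand: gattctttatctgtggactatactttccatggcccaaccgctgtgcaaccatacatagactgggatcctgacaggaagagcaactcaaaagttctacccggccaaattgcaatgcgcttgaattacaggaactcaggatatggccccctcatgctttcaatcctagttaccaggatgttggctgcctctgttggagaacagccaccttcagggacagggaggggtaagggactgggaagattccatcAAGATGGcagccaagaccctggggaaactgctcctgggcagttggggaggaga
Mrps31, chr16:76324016-76324315, - strand: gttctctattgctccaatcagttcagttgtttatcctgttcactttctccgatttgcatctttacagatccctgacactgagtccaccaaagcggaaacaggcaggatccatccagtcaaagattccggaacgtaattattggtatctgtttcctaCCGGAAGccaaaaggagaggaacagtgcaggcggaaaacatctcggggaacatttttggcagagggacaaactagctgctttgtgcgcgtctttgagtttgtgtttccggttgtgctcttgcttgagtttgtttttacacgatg
Mrpl49, chr1:212779278-212779577, - strand: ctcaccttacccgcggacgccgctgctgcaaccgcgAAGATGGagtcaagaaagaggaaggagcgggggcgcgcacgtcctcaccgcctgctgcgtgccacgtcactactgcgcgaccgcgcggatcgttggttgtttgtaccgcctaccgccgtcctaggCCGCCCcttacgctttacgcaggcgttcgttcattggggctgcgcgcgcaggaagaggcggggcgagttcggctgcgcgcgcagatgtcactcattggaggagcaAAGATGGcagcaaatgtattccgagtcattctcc
Mrps18b held every motif searched except POU1F1: the palindromic NRF1 match starts 20 bases before the start, the ETS match on the reverse strand 3 bases before it, and the YY1 match at base 29 after it. Mrps6 held 1 match, to YY1, starting 3 bases before the start. Mrps31 held 1, to ETS, 94 bases before it. Mrpl49 held YY1 at 214 bases before and at base 17 after the start, and SP on the reverse strand 89 bases before.

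Windows were found for 59 of the 73 members, 61 windows in all. ETS was in 32.8% of the members' windows, against 18.0% of the 9534 windows of tested genes and 8.75% of all 33469 windows. YY1 was in 24.6%, against 8.43% and 7.01%, and NRF1 in 18.0%, against 13.8% and 5.8%. SP was in 49.2% (62.6% of tested genes and 33.1% of all), the E-box in 9.84% (9.52% and 6.42%) and POU1F1 in 3.28% (3.72% and 9.88%). Short motifs also follow base composition, and median GC content was 56.0% for members, 61.0% for tested genes and 51.7% for all windows. By direction of change, ETS was in 2 of 4 windows of genes that rose and 1 of 5 of genes that fell, YY1 in 2 of 4 and 3 of 5, and NRF1 in 1 of 4 and 1 of 5. POU1F1 matched in the Mrpl32 window and in none of the other 8. These matches are letters in a window and say nothing of binding in these cells.

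Mrps18a, Mrps18b and Mrps18c encode mitochondrial homologues of the same bacterial protein, and of these Mrps18b alone was called. Mrps18a, whose protein sits in the large subunit, gave 406, 360.2 and 314 in control cells and 339.6, 411 and 427 in R271W cells (0.13, adjusted p = 0.521). Mrps18c gave 119, 101 and 117 against 117, 125 and 145 (0.20, adjusted p = 0.383), while its second probe set gave -0.39 (adjusted p = 0.28) and its dimmest one was below the filter. Arrays of the groups overlapped for Mrps18a and for every probe set of Mrps18c. Differences between the paralogs' changes were not tested.

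The 3 largest decreases that did not pass the test were in Mrps27, Mrps28 and Mrpl54. Mrps27, which has the repeats of an RNA-binding pentatricopeptide protein, gave 90.5, 82.3 and 95.7 in control cells and 56.3, 48.6 and 81.4 in R271W cells (-0.56, SE 0.205, adjusted p = 0.0827). R271W replicate 3 lay near control. Leaving out that array gave -0.77 (adjusted p = 0.0166), and leaving out R271W replicate 2 gave -0.40 (adjusted p = 0.253). Its 2 dimmer probe sets had the opposite sign, at 0.20 and 0.64. Mrps28 gave 182, 212 and 201 against 122, 175 and 171 (-0.36, adjusted p = 0.112), with R271W replicate 1 well under the others, and without that array it stood at -0.20 (adjusted p = 0.354). Mrpl54 gave 936, 858 and 883 against 640.0, 740.3 and 841 (-0.28, adjusted p = 0.0661). It stood at -0.37 (adjusted p = 0.00964) without R271W replicate 3 and at -0.18 (adjusted p = 0.228) without R271W replicate 1. Groups did not overlap for any of the 3 in these probe sets. Mrps7, in the head of the small subunit, was named after its values were seen, since it was closest to the threshold (-0.27, adjusted p = 0.053).

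The 3 largest increases that did not pass were in Mrpl34, Mrpl28 and Mrps17, all with bacterial counterparts. Mrpl34 gave 321, 224 and 320.0 in control cells and 357, 368 and 382 in R271W cells (0.37, SE 0.129, adjusted p = 0.0667), with control replicate 2 far below the other control arrays. Without that array it stood at 0.20 (adjusted p = 0.254). Mrpl28 gave 404, 346 and 385 against 495, 426 and 435 (0.26, adjusted p = 0.0923). Mrps17 gave 746, 737 and 646 against 815, 778 and 933 (0.25, adjusted p = 0.0843). Groups did not overlap for these genes, and quantile normalization gave Mrps17 an adjusted p of 0.0133.

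Probe sets of 1 gene did not always point the same way. Of 15 members with more than 1 tested probe set, 9 had sets of opposite sign: Mrpl10, Mrpl40, Mrpl50, Mrpl51, Mrpl52, Mrps2, Mrps14, Mrps18c and Mrps27. Of the 19 additional probe sets tested, the second set of Mrpl49 was the 1 called. In Mrpl51, which has 4, the values were -0.18 for the brightest and -0.02, 0.11 and -0.81 for the others, none of them called. Mrps14 gave -0.16 and 0.25, with signals of 494 ± 18.9 against 443 ± 16.6 in the first set and 161 ± 22.8 against 191 ± 23.1 in the second.

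Large and small subunit genes were then set against each other. Of the 46 Mrpl genes, 3 were called higher and 1 lower, with a median log2 fold change of -0.05 that became 0.01 with quantile normalization. Of the 27 Mrps genes, 1 was called higher and 4 lower, with a median of -0.08. Calls in either direction made up 8.70% of the Mrpl and 18.5% of the Mrps genes. Over all tested genes the share was 18.9%, with 9.87% higher and 8.98% lower. The difference between the subunits' counts was not tested. Placing Mrps30 and Mrps18a in the large subunit, where their proteins sit, gave 48 large subunit genes with 3 higher and 2 lower, and 25 small subunit genes with 1 higher and 3 lower. The medians stayed at -0.05 and -0.08.

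On each array, the mean log2 signal of the large subunit genes minus that of the small subunit genes was 0.038, -0.003 and 0.021 in control cells and 0.071, 0.134 and 0.064 in R271W cells. Every R271W array was above every control array. The difference between the group means was 0.07 on the log2 scale, with an SD between arrays of a group of 0.03, and no p is given because the genes were chosen with earlier results known. The difference fell to 0.03 when a gene's probe sets were averaged and to 0.02 when its second brightest set was used. The SD between arrays was not computed for those versions.

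Against the control mean, the large subunit genes moved by -0.071, 0.005 and 0.056 on the 3 R271W arrays and the small subunit genes by -0.123, -0.110 and 0.010. All tested genes moved by 0.096, 0.078 and 0.076. R271W replicate 3 had the highest signal of its group for 44 of the 73 members, replicate 2 for 18 and replicate 1 for 11. The R271W arrays thus differed among themselves in the members' mean (-0.090, -0.037 and 0.039) more than the control arrays did (0.014, -0.011 and -0.003), and the groups overlapped.

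**Figure D3:**
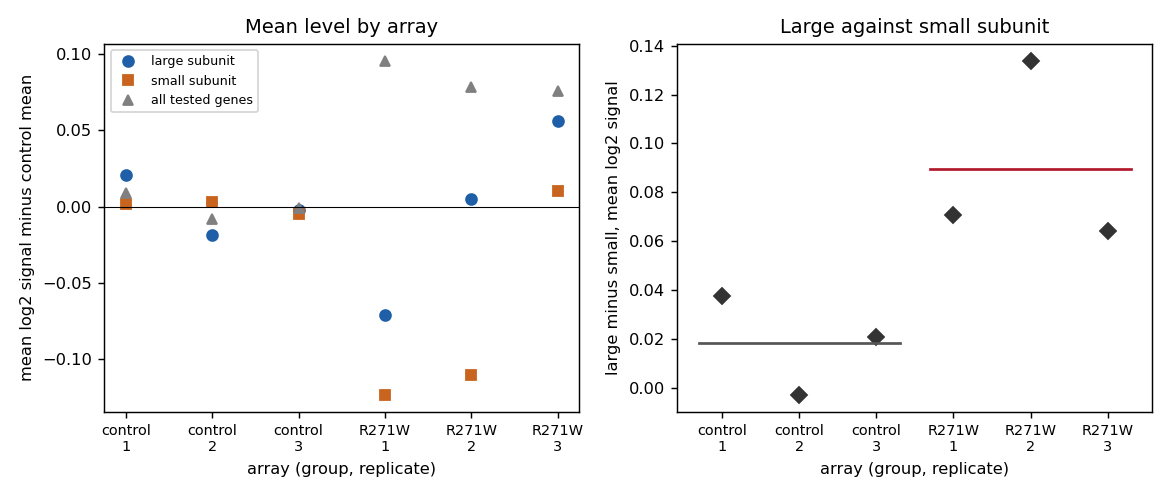
Left, mean log2 signal on each array minus the mean of the control arrays for 46 large subunit genes, 27 small subunit genes and all tested genes. Right, large minus small subunit mean log2 signal on each array, with horizontal lines at the group means; the R271W arrays, at 0.071, 0.134 and 0.064, lie above the control arrays, at 0.038, -0.003 and 0.021.

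Control probe sets of the array also differed between the groups. The hybridisation spikes, which are added in equal amount to every array, had a mean log2 signal of 8.93 ± 0.12 (SD, n = 3) in control and 9.17 ± 0.11 in R271W arrays, without overlap. They were highest on R271W replicate 3, at 9.30 against 9.10 on both other R271W arrays. The ratio of 3′ to 5′ signal of beta-actin, a measure of RNA integrity and labelling, was 1.82 ± 0.00763 in control and 1.96 ± 0.099 in R271W arrays, also without overlap. Spiked poly-A RNAs and the GAPDH ratio overlapped. The part of these differences in the members' changes was not tested.

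Genes were next grouped by where their proteins sit. In the central protuberance, which contacts the small subunit and the transfer RNAs, 0 of 9 listed genes rose and 1 fell, Mrps30. The median was -0.19 and 7 of the 9 values were below 0, as were 42 of all 73 members and 4456 of all 10143 tested genes. These signs depend on the scaling, as given above. The 6 genes around the polypeptide exit had a median of -0.19, with 0 called by limma in either direction and 2 lower at an unadjusted p under 0.05. The 4 genes of the peptidyl transferase region had a median of -0.09, with 0 called and 1 lower at an unadjusted p under 0.05. Among 6 genes of the small subunit head and mRNA path the median was -0.15, with 0 called and 1 lower at an unadjusted p under 0.05. At that unadjusted limma p, 16 of all 73 members and 1517 of all 10143 tested genes were lower. At the adjusted threshold, limma called 9.87% of all tested genes higher and 8.98% lower. In the stalk, Mrpl12 fell and Mrpl10 stood at 0.13 (adjusted p = 0.564), its second probe set at -0.12.

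By origin, the 44 members with a bacterial homologue had 2 higher calls, 4 lower and a median of -0.09. The 29 members particular to mitochondria had 2 higher, 1 lower and a median of 0.04. Calls made up 13.6% and 10.3% of these groups, against 18.9% of all tested genes. The difference between these groups was not tested.

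The 5 mitoribosomal proteins whose symbols do not start with Mrp were read the same way. Dap3, a GTP-binding protein of the small subunit, rose from 249, 224 and 236 in control cells to 296, 317 and 359.6 in R271W cells (0.45, SE 0.105, adjusted p = 0.00991). Ptcd3, a pentatricopeptide protein of the small subunit, fell from 557, 574 and 517 to 481, 418 and 454 (-0.28, SE 0.0875, adjusted p = 0.0414). Groups did not overlap for either gene. Dap3 was no longer called with median centring (0.25, adjusted p = 0.14), and Ptcd3 was lost under 9 of 17 alternatives, among them no filter (0.0565), quantile normalization (0.114) and the omission of R271W replicate 2 or 3 or control replicate 1, 2 or 3 (0.153, 0.0572, 0.114, 0.144 and 0.0554). The others did not pass. Chchd1 gave 407, 377 and 432 against 320.0, 392 and 407 (-0.13, adjusted p = 0.476). Gadd45gip1 gave 248, 215 and 268 against 238, 230.4 and 228 (-0.06, adjusted p = 0.752). Aurkaip1 gave 304, 308 and 294 against 274, 337 and 352 (0.08, adjusted p = 0.68), and its sign turned with both centrings. Arrays of the groups overlapped for these 3 genes.

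Factors that work with the mitoribosome were read beside the shares over all tested genes, 9.87% higher and 8.98% lower. Of 17 translation factors listed, 15 were tested, with 0 higher, 1 lower and a median of -0.02. The gene that fell was Mtif2, the initiation factor that places the first transfer RNA, at 130.4, 158 and 149 in control cells and 79.5, 128 and 81.3 in R271W cells (-0.63, SE 0.182, adjusted p = 0.0317). Its groups did not overlap, although R271W replicate 2 stood near control. Without R271W replicate 1, R271W replicate 3, control replicate 2 or control replicate 3 the adjusted p was 0.108, 0.0873, 0.107 and 0.091, and with array weights 0.0517.

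Of 28 assembly factors, 25 were tested, with 1 higher, 1 lower and a median of -0.08. Median centring gave 6 lower calls. Rbfa, which acts in maturation of the small subunit RNA, rose from 88.1, 109 and 77.1 to 139.6, 138 and 163 (0.69, SE 0.157, adjusted p = 0.00855). Mterf3, which acts in assembly of the large subunit and in mitochondrial transcription, fell from 872, 943 and 872 to 683, 706 and 754 (-0.33, SE 0.0767, adjusted p = 0.0104). Both genes were without overlap, and without control replicate 2 the adjusted p of Mterf3 was 0.0574.

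Of 18 genes for mitochondrial transcription, DNA maintenance and its nuclear control, 17 were tested, with 2 higher, 2 lower and a median of -0.14. The share called, 23.5%, was near the 18.9% of all tested genes, and with median centring the counts became 0 and 5. Nrf1, the factor whose motif was searched above, gave 104, 88.3 and 82.5 in control cells and 54.3, 56.0 and 58.7 in R271W cells (-0.69, SE 0.174, adjusted p = 0.0152). Pprc1, a coactivator of such factors, fell from 154, 183 and 160.2 to 103, 121 and 110.3 (-0.57, SE 0.132, adjusted p = 0.00966). Both lay below control on every R271W array. The adjusted p of Nrf1 was 0.0528 with averaged probe sets and 0.0753 without control replicate 1, and without control replicate 2 that of Pprc1 was 0.0534.

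Gabpa, the DNA-binding subunit of an ETS factor, rose from 267, 309 and 352 to 411, 462 and 397 (0.46, SE 0.111, adjusted p = 0.0127), and was lost with median centring (adjusted p = 0.146) and without R271W replicate 2 (0.0637) or control replicate 1 (0.0601). Mterf2, a protein that binds mitochondrial DNA, rose from 60.4, 45.7 and 56.1 to 79.0, 72.8 and 127 (0.75, SE 0.226, adjusted p = 0.0383). Its groups did not overlap, and R271W replicate 3 was the highest array. Without that array the log2 fold change was 0.50 (adjusted p = 0.154), and without control replicate 1, 2 or 3 the adjusted p was 0.0547, 0.123 and 0.0746. Quantile normalization gave 0.0913, centring on the 75th percentile 0.0666 and on the median 0.114.

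Without the intensity trend Nrf1 kept its call, while Dap3, Ptcd3, Mtif2, Rbfa, Mterf3, Pprc1, Gabpa and Mterf2 lost theirs, with adjusted p from 0.0539 to 0.167.

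Of 20 mitochondrial aminoacyl-tRNA synthetases and related enzymes, which charge transfer RNAs for the mitoribosome, 15 were tested. The limma test called 0 higher and 0 lower, with 1 higher and 0 lower at an unadjusted p under 0.05, and the median was 0.01.

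For comparison, the 45 genes tested under cytosolic ribosomal protein symbols had a median of -0.04 and 0 calls in either direction. At an unadjusted limma p under 0.05, 3 were higher and 3 lower. Median centring gave 17 lower calls and 0 higher, and quantile normalization 1 higher and 2 lower. Their median size of change was 0.0661, against 0.162 for the mitoribosomal proteins. Many were far brighter than any member, up to a mean control signal of 7101 (Rps29) against 1336. Their median SD between arrays of a group was 0.101 on the log2 scale, against 0.135. The list was drawn by symbol and also holds the like-named genes Rpl7l1, Rps27l, Rpl39l1 and Rpl26l1. It has dim probe sets too, such as those of Rpl39 (46.5), Rps13 (19.8) and Rpl30 (12.6). The part of brightness in this contrast was not tested. The 69 oxidative phosphorylation subunits tested, most of whose complexes hold products of the mitoribosome, had a median of 0.05. The test called 10.1% of them, against 18.9% of all tested genes, with 5 higher and 2 lower. With centring on the 75th percentile these became 0 and 6, with median centring 0 and 17, and with quantile normalization 18 higher. The lowest p in that list was that of Ndufb3, a subunit of complex I, at 1269 ± 23.1 in control and 831 ± 12.0 in R271W cells (-0.61, SE 0.0682, adjusted p = 6.01e-05).

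**Figure D4:**
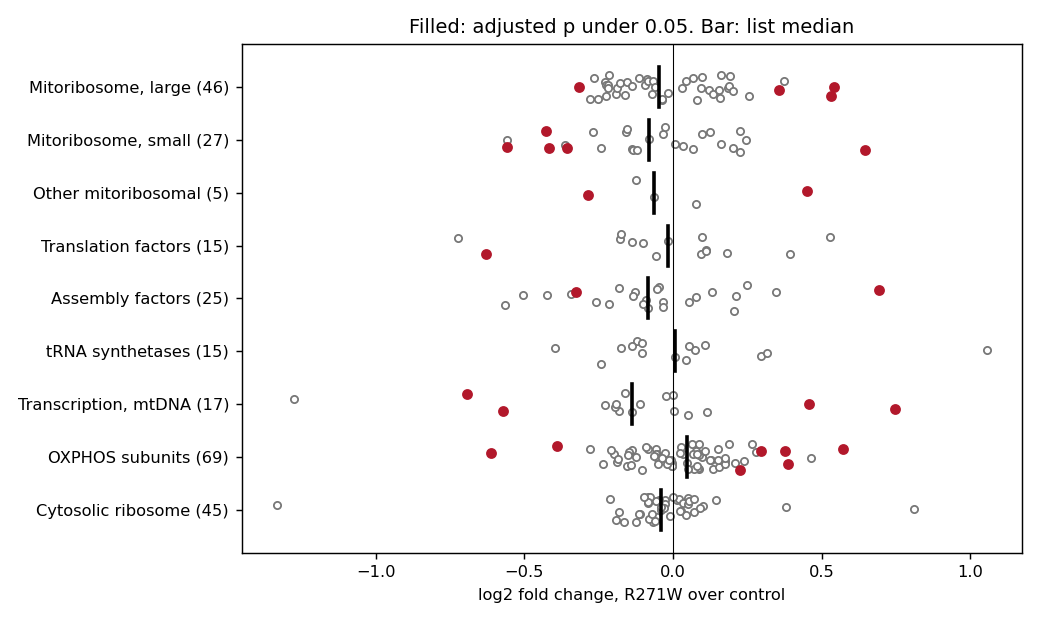
Log2 fold change, R271W over control (horizontal axis), of each tested gene in 9 lists (rows, number tested in parentheses). Filled points passed an adjusted p of 0.05 and vertical bars are list medians, which run from -0.14 for mitochondrial transcription and DNA to 0.05 for oxidative phosphorylation subunits.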

How the data were processed

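Biotin-labelled RNA of 6 GH4C1 cultures was read on Affymetrix rat arrays, as the labels' protocols state. The authors deposited 1 intensity per probe set and array, a linear signal for which the submitters' processing notes name MAS5. Neither its version nor its settings are given in the sources used. The trimmed mean (2% at each end) was 100.03 to 100.04 on each array, so signals are relative to each array's bright probe sets.

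Symbols came from a platform annotation table and were checked by Entrez ID against RefSeq genes of GRCr8. Of 31042 probe sets that are not controls, 20826 had 1 symbol, 436 several and 9780 were unnamed. Signals were taken to log2 without further scaling. A filter at the 40th percentile of mean log2 signal, equal to a signal of 11.2, left 18625 probe sets. The test on these was limma 3.58.1 under R 4.3.3 (lmFit, eBayes with an intensity trend, group as the only term, two-sided), with Benjamini-Hochberg adjustment over all of them. The test was checked on simulated data. Python 3.11.15 and matplotlib 3.10.9 made the figures. The number of arrays, 3 per group, limits the precision.

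The members, lists and rules were chosen with earlier results of these data known. The rule named every called member, the 3 largest changes not called in each direction, the 5 proteins with other symbols, members whose probe sets differ in sign, and up to 4 called genes of each related list; not every one allowed is described. Promoter windows came from RefSeq. Alternatives changed the centring, normalization, offset, filter, probe set choice, moderation, array weights, fold threshold, replicate block and arrays included.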

Additional observations from a re-analysis of the deposited data

How the results depend on the processing

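The count of members called higher, 4 in the reported test, stayed within 1.5 times of it under 15 of 20 alternatives, and the count called lower, 5, under 10 of 20. Higher calls fell to 1 with median centring or a fold of at least 1.5, and to 0 without the limma intensity trend (4 at an unadjusted p under 0.05). They were 2 to 3 when 1 array was left out, 2 without R271W replicate 2 or control replicate 1. Lower calls were 11 with centring on the 75th percentile, 25 with median centring, 8 with array weights, 8 with a filter at the 60th percentile, 3 with second brightest probe sets, 0 with a fold of at least 1.5 and 0 without the trend (6 at an unadjusted p under 0.05). They were 2 to 9 when 1 array was left out, with 9 without R271W replicate 3, 3 without control replicate 1 and 2 without control replicate 2. The fold and the left-out arrays narrow or thin the test by construction; otherwise the cause was not tested.

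The members' median log2 fold change became -0.142 with centring on the 75th percentile and -0.258 with median centring. That of large subunit genes became -0.132, -0.247 and, with quantile normalization, 0.00576; that of small subunit genes became -0.165 and -0.28. These centrings also moved the median of all tested genes from 0.06 to -0.03 and -0.14, which leaves the members' distance from it, a difference of -0.12, unaltered by construction. That difference was -0.04 with quantile normalization and -0.09 with a filter at the 60th percentile. The large minus small subunit difference, 0.0711, became 0.026 with averaged probe sets and 0.0201 with second brightest ones.

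Mrps27 reversed with averaged probe sets (0.0956) and with its second brightest set (0.202). Aurkaip1 reversed with centring on the 75th percentile (-0.00422) and on the median (-0.12). Gadd45gip1 ran from -0.15 to 0.00916 when 1 array was left out, reversing without control replicate 3. None of these reversed values passed the threshold.

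With the replicate block, 3 members were higher and 5 lower, each of them also called without it; Mrpl20 and Ptcd3 were lost. Deviations of same-numbered arrays correlated at -0.00165, 0.0101 and -0.0201. The labels give replicate numbers only, and these correlations cannot show whether same-numbered cultures were handled together. The smallest change called among members was 0.32 on the log2 scale, with 3 arrays a group, but this is not a cut-off by size. Larger changes in Mrps27 (-0.56), Mrpl34 (0.37) and Mrps28 (-0.36) did not pass. Outside the members, smaller changes in Ptcd3 (-0.28) and the oxidative phosphorylation subunit Uqcrh (0.23) did.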
